A study of Mus musculus with 2 samples.

Results

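The erythroid miRNAs miR-451a, miR-144 and miR-486 were followed in small RNA of 2 sorted populations of mouse spleen cells. The members are 4 of 1178 miRNA hairpins searched, namely Mir451a, Mir144, Mir486 and Mir3107. A tag, that is a distinct sequence with its read count, was taken for a member when it had 18 to 30 nt and equalled a stretch of that hairpin, directly or after removal of 1 to 3 letters at its 3' end. No member tag also fitted a hairpin outside the 4.

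Both populations came from spleens of C57BL/6J mice, enriched on CD11c microbeads and sorted by how much Ia, an MHC class II molecule, they bore. They are Ia_low, CD11c+ cells with low Ia, and Ia_high, CD11c+ cells with high Ia, and the labels call both dendritic cells and name no treatment, age or number of animals. Each population was sequenced as 1 library, so nothing below has a replicate check and no p-value is given. The Ia_low library held 13739811 reads, of which 3643308 were assigned to miRNA arms, and the Ia_high library held 16388303 reads, of which 7403435 were assigned. Levels are given as CPM, counts per 1000000 of these assigned reads. No molecular identifiers are named, and among tags read more than once the usual number of reads was 9 in Ia_low and 4 in Ia_high (the mode). Each interval below is an exact 95% counting interval for counts divided by these numbers, and covers counting error only. In mRNA fragments of the same libraries, 9 of 10 conventional dendritic cell genes were at least 2-fold lower in Ia_low. So were 6 of 8 MHC class II genes, while 8 of 9 Ly6C-low monocyte genes were at least 2-fold higher. By the same rule, 9.54% of all 7131 genes measured were lower and 6.2% higher. Measured genes had 10 fragments or more in both libraries together. The dendritic cell genes called lower, except Irf4, had under 10 in Ia_low and reached that number through Ia_high. MHC class II was what the cells were sorted by. Nothing is therefore read from the counts of lower genes in these lists.

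miR-144 and miR-451a are cut from 1 primary transcript that is switched on by GATA1 during red cell formation, and miR-486 is likewise abundant in red cells and also in muscle. Most miRNA hairpins are cut by Dicer into a pair of strands. The hairpin of miR-451a is too short for Dicer. Its stem is sliced by Argonaute 2, and the 3' end is then shortened by an exonuclease, PARN in human cells, so that the miRNA lies on 1 arm and its 3' ends are ragged.

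The mature sequences in RefSeq (build GRCm38.p6), 5' to 3', are shown with the seed, bases 2 to 8, in capitals, since the seed sets which targets a miRNA can pair with. RefSeq entries were matched for Mir451a and Mir144. For miR-486-5p the most abundant tag of both libraries is given in the DNA letters of the files.
miR-451a: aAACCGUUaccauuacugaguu
miR-144-5p: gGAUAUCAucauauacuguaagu
miR-144-3p: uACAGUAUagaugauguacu
miR-486-5p tag: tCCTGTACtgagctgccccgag
None of the 3 RefSeq seeds was shared by another mature miRNA in that table.

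In GRCm38, Mir144 lies on chromosome 11 from 78073005 to 78073070 and Mir451a from 78073170 to 78073241, both on the plus strand with 99 bases between them. Mir451b lies opposite Mir451a on the minus strand. Mir486 spans 23142555 to 23142682 of chromosome 8, plus strand, within introns of Ank1, the gene of the red cell skeleton protein ankyrin-1. All 15 Ank1 transcripts that span it have no exon over it. Mir3107, also called mir-486b, lies opposite it on the minus strand from 23142573 to 23142662, and both hairpins give the same main tag.

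All 3 erythroid miRNAs were lower in Ia_low than in Ia_high. miR-451a had 34 reads in Ia_low, which is 9.33 CPM, against 397 reads and 53.6 CPM in Ia_high. It was 5.75-fold lower in Ia_low (interval 2.12 to 22.6). miR-144-5p had 16 reads, 4.39 CPM, in Ia_low and 190 reads, 25.7 CPM, in Ia_high, and was 5.84-fold lower (1.43 to 60.3). Both neighbours on chromosome 11 were thus scarce. Their folds were close, but intervals this wide cannot show that both differed by the same factor. The whole of each signal in Ia_low was 1 tag, while Ia_high held 11 tags of miR-451a and 4 of miR-144-5p.

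miR-486-5p was of another order of abundance. It had 46407 reads and 12738 CPM in Ia_low, against 220450 reads and 29777 CPM in Ia_high, and ranked 15th of 456 arms with reads in Ia_low and 8th of 691 in Ia_high. It was 2.34-fold lower in Ia_low (2.27 to 2.41). With directly matched tags alone its log2 ratio was -0.98, short of 2-fold, and centred on the median ratio of all arms it was -0.93. With distinct tags in place of reads it was 0.13, so the direction turned. The 3p arm of Mir486 had 10 reads, 2.74 CPM, in Ia_low and 140 reads, 18.9 CPM, in Ia_high, 6.89-fold lower (1.24 to 204). The intervals of miR-451a, miR-144-5p and the Mir486 3p arm all take in the 2.34-fold of miR-486-5p, so their larger folds could not be told from it at this depth.

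Arms averaging at least 10 CPM were called lower where the ratio was 0.5 or less and its exact interval from read counts excluded 1. All 4 member arms at that level were called lower, where 31.4% of the 258 arms tested were called lower and 10.1% higher. With intervals from divided counts all 4 were again called lower, against 27.9% of arms lower and 8.91% higher. miR-451a, miR-144-5p and the Mir486 3p arm were under 10 CPM in Ia_low and reached the floor through Ia_high, so they could hardly be called other than lower, and nothing is read from the count of 4. The median log2 ratio of arms with reads in both libraries was -0.30, with quartiles of -1.14 and 0.37. miR-451a stood at -2.52, miR-144-5p at -2.55 and miR-486-5p at -1.23, and 16, 15 and 56 of these 253 arms had a log2 ratio at or below theirs. Scaling to all reads in place of miRNA reads lowers every log2 ratio by 0.77, so the member arms stay on the low side under either scale, but miR-144-5p and the Mir486 3p arm then miss the floor of 10 and are no longer called.

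**Figure D1:**
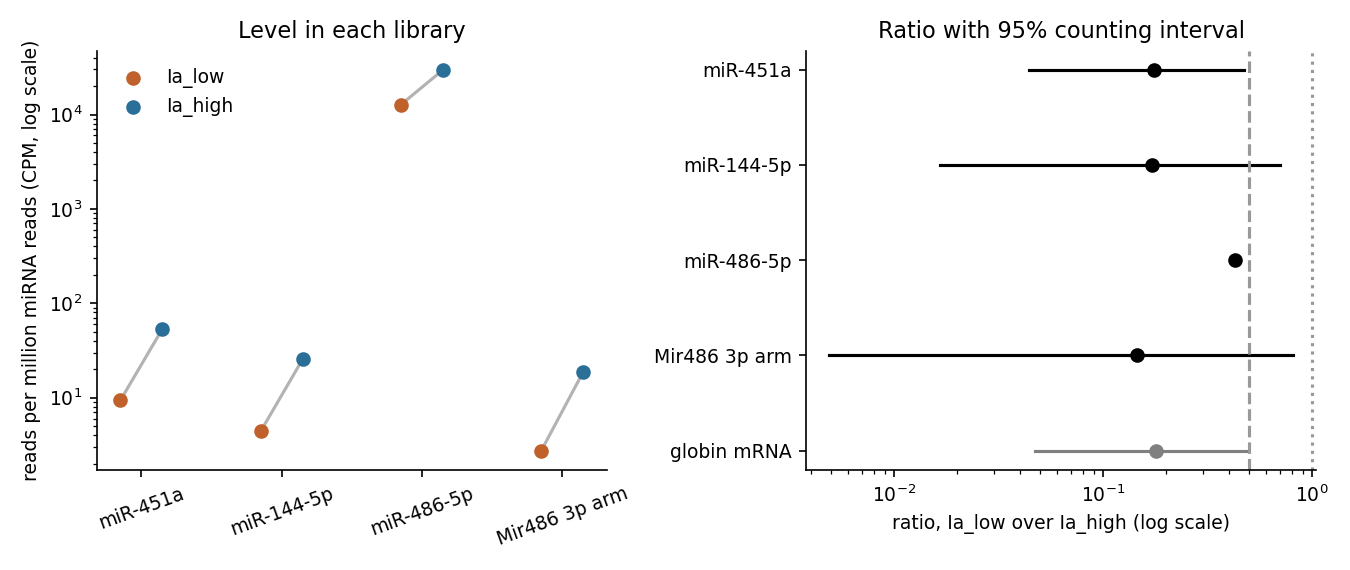
Left, CPM on a log scale of 4 member arms in Ia_low and Ia_high, 1 library each. Right, the ratio of Ia_low over Ia_high on a log scale with its 95% counting interval (reads divided by the common reads per tag for miRNAs, distinct fragments for globin mRNA), with a dashed line at 2-fold lower and a dotted line at equality. Every ratio lies under 0.5, from 0.145 for the Mir486 3p arm to 0.428 for miR-486-5p.

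The ratio nearest to that of miR-451a among arms at a mean of 10 CPM belonged to miR-21a-3p, with a log2 ratio of -2.51, then miR-99a-5p with -2.51 and miR-144-5p with -2.55. This likeness rests on 1 ratio over 2 libraries. The levels differed widely, since miR-21a-3p had 116 CPM in Ia_low and 663 CPM in Ia_high, and miR-99a-5p had 9.88 and 56.2 CPM in Ia_low and Ia_high.

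The 3' ends of miR-451a were ragged in Ia_high. All 397 reads began at the same base, position 78073186 of chromosome 11, and their templated lengths ran from 21 to 29 nt. The tags are printed with letters beyond the 22 nt of the RefSeq sequence in capitals. Where templated, these letters show how far each end reaches into the loop and the other side of the stem.
21 nt: aaaccgttaccattactgagt
22 nt: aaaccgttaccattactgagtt
23 nt: aaaccgttaccattactgagttT
24 nt: aaaccgttaccattactgagttTA
25 nt: aaaccgttaccattactgagttTAG
26 nt: aaaccgttaccattactgagttTAGT
29 nt: aaaccgttaccattactgagttTAGTAAT
The 23 nt tag was the most abundant with 175 reads. The 26 nt tag had 50 reads, the 22 nt tag 48, the 25 nt tag 39, the 29 nt tag 33, the 24 nt tag 31 and the 21 nt tag 11. Tags of 27 and 28 nt without tail had 2 reads and 1 read.

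By templated length, reads of 23 nt made up 44.1% of Ia_high reads of miR-451a (34.1 to 54.4), longer ones 40.8% (31.04 to 51.1) and shorter ones 15.1% (8.71 to 23.7). The most common end was thus 1 base past the end of the RefSeq sequence, at position 78073208. The 22 nt form with an added T would look the same, so these cannot be told apart. No tag had 30 nt, the upper limit of the tags used. RNA below 30 bases was gel-purified, so ends at or past that length could hardly be seen. Letters that the hairpin does not hold were seen in 7 of the 397 reads or 1.76% (0.171 to 6.70). They were an A after the 22nd base in 1 read and a T after the 27th base in 6. An added letter equal to the next hairpin base, such as a T after the 22nd base, would be read as templated. The share of untemplated letters is therefore a lower limit.

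In Ia_low all 34 miR-451a reads were the 23 nt tag. With 9 reads as the common number per tag, the share of this tag has an interval of 37.7 to 100%, which takes in the 44.1% of Ia_high. Longer reads made up 0 of 34 in Ia_low, with an upper limit of 62.3%. A difference in the spread of 3' ends was therefore not detectable at this depth. Among reads of 20 to 24 nt only, the log2 ratio of miR-451a was -1.93, since most of the long tags were then left out.

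**Figure D2:**
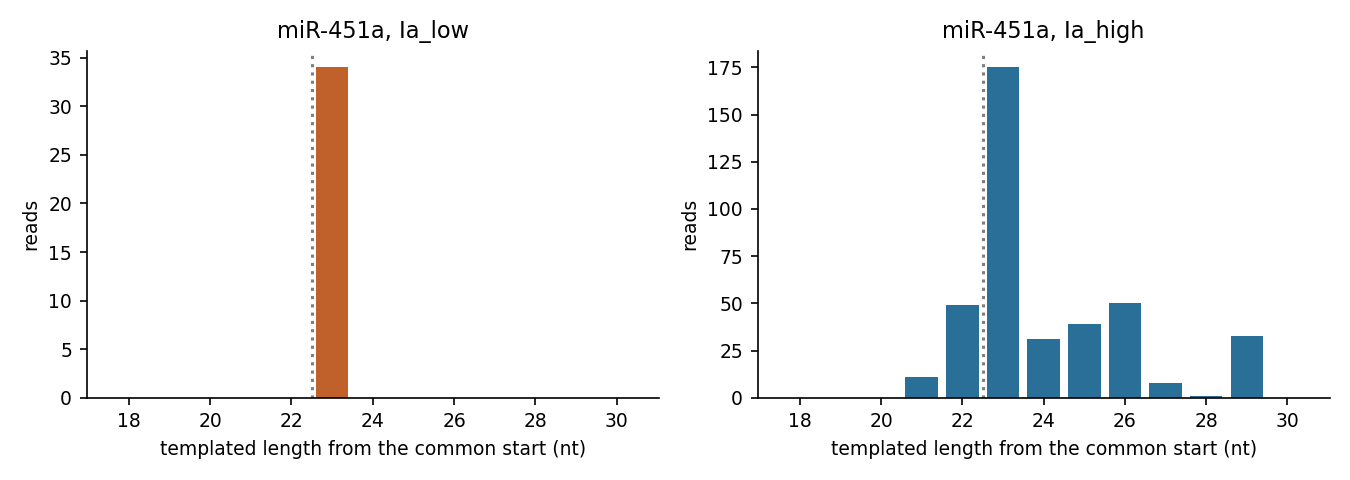
Reads of miR-451a (vertical axis, a scale of its own in each panel) by templated length in nt from the common start, Ia_low left and Ia_high right, with a dotted line after the 22 nt of the RefSeq sequence. The 34 reads of Ia_low all have 23 nt, and the 397 reads of Ia_high spread from 21 to 29 nt.

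Mir144 gave reads from both arms only in Ia_high. There, 190 reads came from the 5p arm and 41 from the 3p arm, which carries the seed by which miR-144 is usually described, so that the 5p share was 82.3% (70.0 to 91.1). In Ia_low all 16 reads came from the 5p arm and none from the 3p arm. The 3p arm had 5.54 CPM in Ia_high, and 0 reads in Ia_low allow up to 0.823 CPM (3 counts), so against that floor it was at least 6.73-fold lower. The exact interval from read counts reached a ratio of 0.191. With counts divided by the usual reads per tag, the interval of its ratio reached 1.98 and so took in equality. At equal CPM, 20.2 reads would have been seen in Ia_low, which is little more than the reads of a pair of tags there. The 5p share of Ia_low has an interval of 12.6 to 100%, so no difference in arm use could be seen at this depth.

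The main miR-144-5p tag had 23 nt, as the RefSeq sequence does, with 16 reads in Ia_low and 154 in Ia_high. A tag 1 base shorter at the 3' end had 26 reads in Ia_high, and a tag that began 1 base later had 9. The 3p tags of Ia_high had 20 nt (18 reads), 19 nt (15 reads) and 18 nt (8 reads), all from the same start. Shorter 3p tags would fall under the limit of 18 nt.

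Mir486 and Mir3107 gave reads from nearly the 5p arm alone. The 5p arm took 99.98% of their 46418 reads in Ia_low (99.88 to 99.999) and 99.92% of their 220622 reads in Ia_high (99.90 to 99.94). Of the 5p reads, 99.7% in Ia_low and 99.9% in Ia_high began at the same base, so the seed was nearly uniform in both populations.

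The hairpin of origin could be told for few miR-486-5p reads. Tags that fitted both hairpins held 46166 of the 5p reads in Ia_low and 219676 in Ia_high. Those fitting Mir486 alone had 195 reads in Ia_low and 715 in Ia_high, and those fitting Mir3107 alone had 46 in Ia_low and 59 in Ia_high. The hairpins part at the 23rd base, shown in capitals in the main tag extended by 1 base, because this letter is what tells them apart.
Mir486: tcctgtactgagctgccccgagG
Mir3107: tcctgtactgagctgccccgagC
The tag of Mir486 had 72 reads in Ia_low and 336 in Ia_high, which is 4.43 per 1000 reads of the main tag in both libraries. The tag of Mir3107 had 41 reads in Ia_low and 52 in Ia_high, or 2.52 and 0.685 per 1000 in Ia_low and Ia_high. A single added G or C can also be untemplated, and whether these letters were copied from the genome was not tested. On the 3p arm, whose sequences differ from the 21st base, Mir486 had 10 reads in Ia_low and 140 in Ia_high, and Mir3107 had 1 read in Ia_low and 14 in Ia_high. Another 18 reads in Ia_high fitted both. The 10 reads of Mir486 in Ia_low were 1 tag, told apart by a single T after the 20 shared bases. The same holds for 36 of its reads in Ia_high. Such a letter can be untemplated too, which was not tested.

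Many miR-486-5p reads ended in letters that neither hairpin holds. The share was 45.8% in Ia_low (44.4 to 47.1) and 51.1% in Ia_high (50.7 to 51.5). The main tags are printed with the untemplated letters in capitals, since these letters are the difference between them.
no tail, 22 nt: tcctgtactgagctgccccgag
no tail, 21 nt: tcctgtactgagctgccccga
T tail: tcctgtactgagctgccccgagT
A tail: tcctgtactgagctgccccgagA
TT tail: tcctgtactgagctgccccgagTT
A tail on 21 nt: tcctgtactgagctgccccgaA
The 22 nt tag without tail had 16259 reads in Ia_low and 75903 in Ia_high, and the 21 nt tag 8105 and 29730 reads in Ia_low and Ia_high. The T-tailed tag had 10834 reads in Ia_low and 62853 in Ia_high, and the A-tailed tag 5383 in Ia_low and 23766 in Ia_high. The tag with TT had 860 reads in Ia_low and 5236 in Ia_high, and the A-tailed 21 nt tag 331 in Ia_low and 2217 in Ia_high.

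Tails were mostly 1 letter long, in 80.3% of the tailed reads from the common start in Ia_low and 80.4% in Ia_high. Their first letter was T in 63.1% and A in 35.6% of tailed reads in Ia_low, and T in 68.7% and A in 30.7% in Ia_high. Tails made only of A and T took 97.4% in Ia_low and 98.5% in Ia_high. Whether some final T is a letter of the adaptor left by trimming cannot be seen in tags of 18 to 30 nt, and reads that still held the adaptor are given in the closing section. Adding U, sequenced as T, and adding A to miRNA ends is the known work of terminal nucleotidyl transferases such as Tut4, Tut7 and Tent2. mRNA fragments of these genes did not reach a 2-fold difference, with 16, 32 and 22 distinct fragments in Ia_low and 55, 72 and 57 in Ia_high.

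The tail depended on where the templated part ended. Reads whose templated part had 22 nt made up 76.7% of miR-486-5p reads in Ia_low and 81.9% in Ia_high, and of these 54.2% in Ia_low and 57.9% in Ia_high carried a tail. Reads of 21 templated nt made up 20.7% in Ia_low and 16.8% in Ia_high, and only 15.5% and 19.6% of these were tailed in Ia_low and Ia_high. An added G after the 21st base would be read as templated, so the share for 21 nt is a lower limit.

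**Figure D3:**
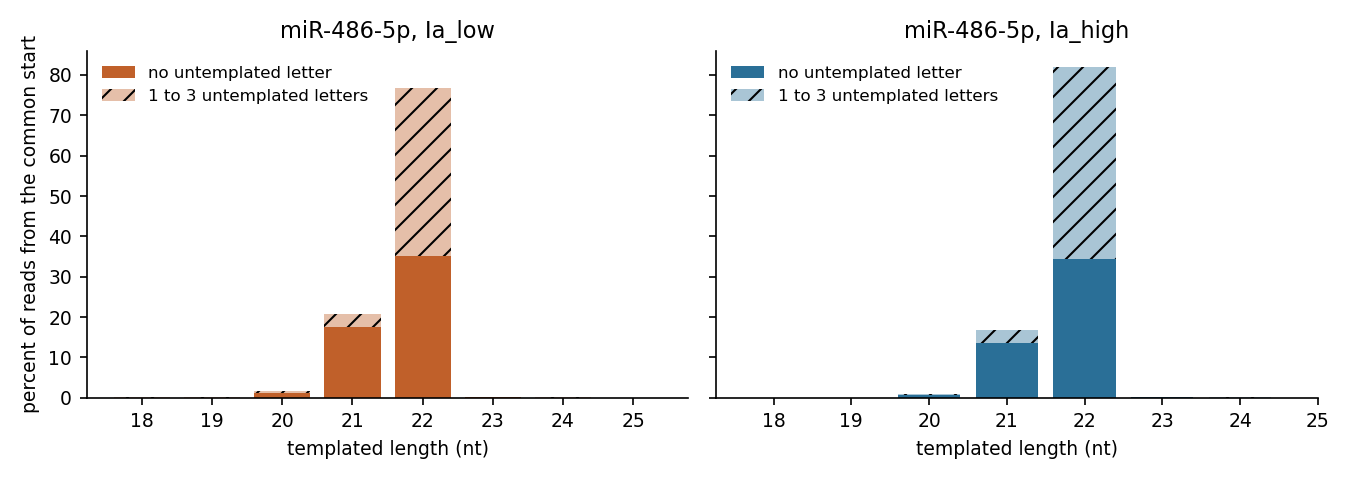
Percent of miR-486-5p reads from the common start (vertical axis) by templated length in nt, Ia_low left and Ia_high right, with the hatched part for reads that carry 1 to 3 untemplated letters. Of the 22 nt bar, 54.2% is hatched in Ia_low and 57.9% in Ia_high, and of the 21 nt bar 15.5% in Ia_low and 19.6% in Ia_high.

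Among the 89 arms with 1000 reads or more in each library, the tailed share of miR-486-5p ranked 24th from the top in Ia_low and 13th in Ia_high. The median over these arms was 22.9% in Ia_low (quartiles 10.2 and 47.4) and 16.9% in Ia_high (quartiles 9.06 and 34.8). For most arms the share was higher in Ia_low, with a median difference (Ia_low minus Ia_high) of 2.92 percentage points, whereas that of miR-486-5p was -5.35 points. Of the 89 arms, 22 had a lower share in Ia_low, and 3 of them, miR-486-5p included, were lower by at least as much. Shares of different arms come from the same libraries, and the difference was not tested. The libraries also differed in read length. Relative to reads of 22 nt, the median arm had 0.727 times as many 21 nt reads in Ia_low as in Ia_high. For reads of 23 and 24 nt it had 1.27 and 1.51 times as many. A tail lengthens a read, so a length bias between the libraries cannot be told apart from a difference in tailing.

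**Figure D4:**
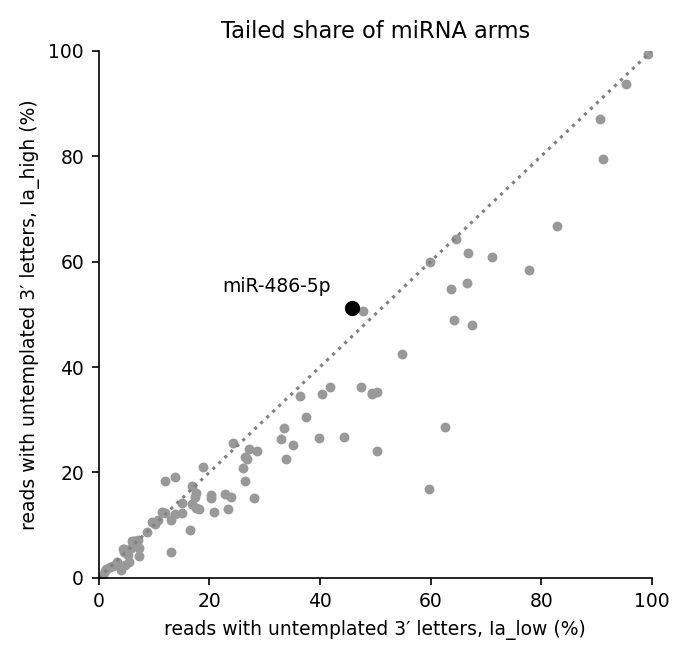
Percent of reads with untemplated 3' letters in Ia_low (horizontal axis) against Ia_high (vertical axis) for the 89 arms that had at least 1000 reads in both libraries. The dotted line marks equality. The black point of miR-486-5p (45.8% in Ia_low, 51.1% in Ia_high) lies above the line, while most arms lie below it.

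Fragments of globin mRNA were found in both libraries, at a lower level in Ia_low. Fragments are distinct tags of 20 to 30 nt that fit 1 protein-coding gene and no other, 142384 in Ia_low and 343762 in Ia_high. The adult globin genes come as near-identical pairs whose tags mostly fit both copies, so each pair was also counted as 1 gene, a step added after the data had been seen. Tags of the beta-globin pair Hbb-bs and Hbb-bt had 1 fragment in Ia_low and 35 in Ia_high, 14.5-fold lower in Ia_low once scaled to all fragments (exact interval 2.44 to 589). Tags of the alpha-globin pair Hba-a1 and Hba-a2 had 3 fragments in Ia_low and 19 in Ia_high, 2.62-fold lower (0.772 to 13.8). Together the globins had 28.1 FPM, fragments per 1000000 counted fragments, in Ia_low and 157 FPM in Ia_high, and were 5.59-fold lower (2.06 to 21.3). Each pair had under 10 fragments in Ia_low and reached that number through Ia_high, so nothing is read from their direction. The part of these transcripts, or of the cells they came from, in the lower miR-451a, miR-144 and miR-486 of Ia_low was not tested. In bulk RNA, fewer cells of a type and less RNA per cell cannot be told apart.

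Of the 27 erythroid genes found in the annotation, 4 had a fragment in Ia_low and 22 in Ia_high. Ia_low was the shallower library, and over all genes 9563 had a fragment there and 11456 in Ia_high. The 4 were Slc25a37, Tfrc, Tspan33 and Fech. Slc25a37, Tfrc and Fech serve iron uptake and haem synthesis in many cell types. Defining red cell genes were at 0 fragments in Ia_low and low in Ia_high, with 6 fragments of the anion exchanger Slc4a1, 6 of the spectrin Sptb, 5 of Rhag, 2 of the transcription factor Gata1 and 1 of the haem enzyme Alas2. At such numbers the exact intervals of the single genes take in equality, up to a ratio of 2.05 for Slc4a1, so these zeros are not differences detectable at this depth. Ank1, the host gene of Mir486, had 0 fragments in Ia_low and 2 in Ia_high. Summed over the list, the level was 288 FPM in Ia_low and 591 in Ia_high. Without the globins the sum was 1.98-fold lower in Ia_low (exact interval 1.41 to 2.84) and was not called.

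Only 6 erythroid genes reached 10 fragments in both libraries together. Car2, carbonic anhydrase 2, had 0 fragments in Ia_low and 15 in Ia_high and was called lower, as was Tspan33 with 5 in Ia_low and 33 in Ia_high (2.73-fold). The other 4 were not called. Among them Tfrc, the transferrin receptor, had 16 fragments in Ia_low and 52 in Ia_high, and Slc25a37, which brings iron into mitochondria, had 17 and 22 in Ia_low and Ia_high. Of all 7131 genes at 10 fragments or more, 9.54% were called lower and 6.2% higher. The median log2 ratio of the 6 genes was -0.76, against -0.14 over all 7131. Car2, Ermap, Tspan33 and Fech had under 10 fragments in Ia_low and reached that number through Ia_high, so nothing is read from the 2 calls or the median.

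**Figure D5:**
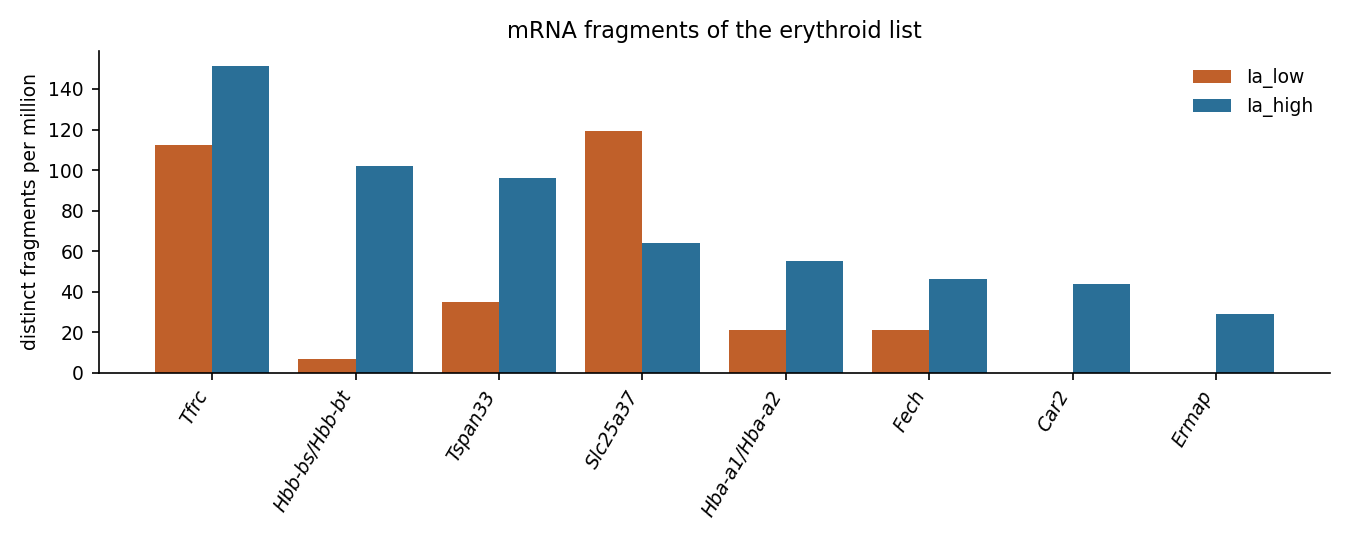
FPM of distinct mRNA fragments (vertical axis) of the globin pairs and the 6 erythroid genes whose fragments in both libraries add up to at least 10, with Ia_low left of Ia_high for each gene, 1 library each. Car2 and Ermap are at 0 in Ia_low, and both globin bars are lower than in Ia_high.

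Other cells of the spleen that handle red cells or shed RNA were checked by their own lists. Red pulp macrophages take up old red cells. Of the 12 measured genes on the list used for them, 5 were called lower and 2 higher in Ia_low, beside 9.54% lower and 6.2% higher over all genes. Not every gene of this list is particular to these cells. All 5 called lower had under 10 fragments in Ia_low and reached that number through Ia_high, so nothing is read from this count. The iron exporter Slc40a1 had 1 fragment in Ia_low and 72 in Ia_high, and the adhesion molecule Vcam1 5 in Ia_low and 134 in Ia_high, while Spic, the factor that sets this macrophage fate, had 5 in Ia_low and 15 in Ia_high (1.24-fold lower once scaled). Siglec1 had 13 fragments in Ia_low and 12 in Ia_high (ratio 2.62 once scaled) and Treml4 58 in both (2.41), and both were called higher. Treml4 is also on the Ly6C-low monocyte list, so its call enters both counts. Adgre1, the gene of the macrophage antigen F4/80, had 70 in Ia_low and 103 in Ia_high (ratio 1.64) and was not called. Summed, the 14 genes had 1201 FPM in Ia_low and 1542 in Ia_high. Of 10 platelet genes 3 had a fragment, with Pf4 and Itga2b at 0 in both libraries, and their sum was 56.2 FPM in Ia_low and 58.2 in Ia_high. Itgb3 alone held all 8 fragments of this list in Ia_low and 17 of its 20 in Ia_high. The sums therefore mostly follow that gene and do not measure platelet RNA. The part of these cells in the miRNA levels was not tested.

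Other miRNAs abundant in red cells were called lower about as often as arms in general. Of 23 genes listed, 17 distinct arms reached 10 CPM, of which 4 were called lower in Ia_low, none higher and 13 neither, beside 31.4% lower and 10.1% higher over all 258 arms, with a median log2 ratio of -0.46, against -0.30 over all arms. The 4 were miR-363-3p (8.23 CPM in Ia_low, 42.3 in Ia_high), miR-182-5p (1005 and 2968 CPM in Ia_low and Ia_high), miR-107-3p (148 and 328) and miR-106b-3p (675 and 1514). miR-92a-3p from Mir92-1 had 152481 CPM in Ia_low and 96001 in Ia_high, and miR-16-5p 15298 in Ia_low and 12211 in Ia_high, and neither was called.

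No gene of the miRNA pathway and no reported target of the members was called different. Of 12 measured pathway genes none was called lower or higher, with a median log2 ratio of -0.03, and with 9.54% lower and 6.2% higher over all genes few calls would fall in a list of this size. Ago2, the slicer that cuts the miR-451a hairpin, had 323 FPM in Ia_low and 480 in Ia_high. Its ratio was 0.673 (exact interval 0.474 to 0.938), which lay under 1 but short of 2-fold. Dicer1 had 126 FPM in Ia_low and 122 in Ia_high. Parn, with 2 fragments in Ia_low and 18 in Ia_high, had an interval that took in 1. Of 7 listed targets none was called either way, with a median of -0.04. Ywhaz, a 14-3-3 protein gene reported as a target of miR-451a in mouse, had 927 FPM in Ia_low and 736 in Ia_high. Its ratio was 1.26 (exact interval 1.01 to 1.56). Nfe2l2 had 281 FPM in Ia_low and 143 in Ia_high, a ratio of 1.97 (1.26 to 3.05), just short of 2-fold. These 2 intervals lay above 1, and those of the other listed targets took in 1. How often an interval excludes 1 over all genes was not counted, so nothing is read from these 2 or from that of Ago2. Among the targets whose interval took in 1, Cab39, an adaptor of the kinase LKB1, had 232 FPM in Ia_low and 239 in Ia_high.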

How the data were processed

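The authors deposited, for each distinct sequence, its raw read count and its length in nt. Per the labels' protocols, small RNA below 30 bases was gel-purified, ligated to a pair of adaptors, amplified for 12 cycles and sequenced on a Solexa instrument. The trimming tool, the filters and the build of the authors' processing: not given in the sources used here. Gel and amplification favour some lengths and sequences.

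Tags of 18 to 30 nt were matched to 1178 GENCODE M21 (GRCm38) hairpins in Python 3.11.15, directly or with the fewest of up to 3 letters removed. Sides of a hairpin with the same main tag were merged, and tags fitting several miRNAs were left out (0.270% of hairpin reads in Ia_low, 0.514% in Ia_high). Ratios are Ia_low over Ia_high with exact (Clopper-Pearson) 95% intervals, from SciPy 1.17.1. The matching and the call rule were tested on simulated data. Named are all members with a read, the 3 nearest ratios to miR-451a, listed red cell miRNAs and up to 6 most abundant genes of each mRNA list. Genes named beyond that were chosen after their values were seen. Members and lists were chosen with earlier results of these data known. Alternatives covered scaling, matching, lengths, tags in place of reads and the abundance floor. Some listed genes enter the counts and sums but are not reported here by name.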

Additional observations from a re-analysis of the deposited data

Results flagged for a closer look

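Reads longer than 30 nt lay outside the tags used above, and some of them were miR-486-5p with the 3' adaptor still attached. There were 34 such reads in Ia_low and 291 in Ia_high, above the 3 counts that 0 reads allow. The labels do not name the adaptor, and its first letters were taken as those most often found after the main miR-486-5p tag in these same long reads, so the border between tail and adaptor rests on that choice. A tail was present in 55.9% of them in Ia_low (8.38 to 95.8) and in 64.3% in Ia_high (52.2 to 75.2). Of the Ia_low reads with 22 templated nt, 45.5% had no tail, 18.2% a T and 18.2% an A, where the shares in the tags of 18 to 30 nt were 45.8%, 30.5% and 15.2%. Of the Ia_high reads with 22 templated nt, 35.2% had no tail, 28.6% a T and 9.89% an A, where the shares in the tags of 18 to 30 nt were 42.1%, 34.8% and 13.2%.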

How the results depend on the processing

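No paired analysis was possible because each population has 1 library. miR-451a, miR-144-5p and the Mir486 3p arm kept their direction under every alternative that gave a value, with log2 ratios of -1.93 to -3.29, -1.01 to -3.32 and -1.82 to -3.55. The 3p arm has no value with direct matches, since its only Ia_low tag is tailed. miR-486-5p depended more on the choices. Its log2 ratio was -1.99 scaled to all reads, -0.93 centred on the median, -0.98 with direct matches and 0.13 with distinct tags in place of reads, where its sign turned and where none of these 4 arms was called lower. A count of tags does not grow with the abundance of a tag. Of all arms, 15 were called lower by distinct tags, 178 with a floor of 1 CPM and 28 with a floor of 100 CPM. By distinct tags, 9.09% of the miR-451a tags of Ia_high had 23 templated nt. With tails of 1 letter only, the tailed share of miR-486-5p was 40.4% in Ia_low and 45.7% in Ia_high, and in reads with adaptor, an alternative chosen after seeing the data, 55.9% in Ia_low and 64.3% in Ia_high. The 5p share of Mir144 in Ia_high was 91.3% among reads of 20 to 24 nt, and that of Mir486 and Mir3107 in Ia_high 99.87% with direct matches. A miRNA total without the members, also added later, and reads in place of mRNA fragments left the directions as they were. In Ia_low, miR-451a and miR-144-5p rest on 1 tag each, so depth limits what can be said of their ends and arms.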
